A study of Mus musculus with 9 samples.

Results

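The genes examined here were the mouse zinc finger protein genes whose symbol is Zfp followed by a number alone, with Zfp488 left out. The pattern matched 294 of the 11315 genes in each file, which left 293 members. Membership was set by name and not by a measured value, but the family was chosen with earlier results of these data known. Their levels were read from 9 RNA sequencing libraries of fluorescence-sorted brain cells of C57BL/6 mice aged 60 days after birth, 3 libraries for each of 3 reporters. PDGFRa-GFP cells are labelled as oligodendrocyte progenitors, PLP-GFP cells as pre-myelinating and NDRG1-eGFP cells as myelinating oligodendrocytes, and groups are called here by reporter. All 3 groups share strain, age, tissue and the sort by a reporter, and no group without a reporter was part of the design. How each reporter was inserted, and whether animals were pooled for a sort, is not given in the sources used here. The labels do not say whether the 3 libraries of a group came from separate animals, so each p-value measures the spread between these libraries only. The series title concerns an oligodendroglial population that expresses NDRG1 and makes myelin, so NDRG1-eGFP against PLP-GFP is the comparison closest to the study's question.

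Zinc finger proteins fold short loops around a zinc ion, and in the C2H2 type a pair of cysteines and a pair of histidines hold it. Fingers of this type stand in rows joined by a short conserved linker, and each finger can read a few bases of DNA. Many carry a KRAB domain, which recruits the co-repressor KAP1 (gene Trim28), histone methylation and HP1 proteins, and such proteins silence retroelements and guard imprinted genes. The family grew by repeated gene duplication, so many members sit in clusters of near copies. Other members bear the name for a different kind of finger: Zfp36 has CCCH fingers and binds AU-rich messages, and some act in ribosome quality control or as ubiquitin or SUMO ligases. In oligodendrocytes, Zfp24 is known to be required for myelination, and Zfp365 and Zfp488 are linked to differentiation. Zfp24 is in the files under its older symbol, Zfp191.

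Conserved finger stretches are shown because identical ones can make reads hard to place. Whether the shared sequence of members lies in their fingers was not measured. Each line below gives 78 bases that code for a finger and the linker after it (GRCm38), with the 15 linker bases in capitals. Zfp442 is read from chr2:150408679-150408756 (minus strand), Zfp937 from chr2:150238616-150238693 (plus strand), Zfp316 from chr5:143255075-143255152 (minus strand) and Zfp266 from chr9:20499602-20499679 (minus strand).
Zfp442: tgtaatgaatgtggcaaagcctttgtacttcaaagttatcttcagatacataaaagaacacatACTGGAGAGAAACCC
Zfp937: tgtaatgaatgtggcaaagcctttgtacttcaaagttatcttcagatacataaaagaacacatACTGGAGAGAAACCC
Zfp316: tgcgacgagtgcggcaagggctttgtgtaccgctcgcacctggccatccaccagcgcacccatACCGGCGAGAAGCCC
Zfp266: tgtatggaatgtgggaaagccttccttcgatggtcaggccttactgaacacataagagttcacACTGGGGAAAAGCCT
The Zfp442 and Zfp937 stretches differed at 0 of 78 bases. Those of Zfp316 and Zfp266 each differed from Zfp442 at 32 of 78 bases (59.0% identical). A read inside the stretch of Zfp442 cannot be told from one of Zfp937, whereas reads of Zfp316 or Zfp266 can.

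All 293 members were found in the annotation, 291 by symbol and 2 by an older symbol. The longest coding sequence held a median of 11 C2H2 fingers, with at most 36 (Zfp142), and 6 members had no match to the finger pattern, among them Zfp36 and Zfp365. A stretch resembling the KRAB domain was found in 161 members and not in the other 132, and 7 had a SCAN-like stretch. These are matches to letter patterns, so a divergent domain could be missed. Chromosome 7 held 80 members, 48 of them with a KRAB-like stretch. Chromosome 17 held 35, chromosome 13 held 27 and chromosome 8 held 23. The longest transcript per gene had a median of 3651 nt in members and 3513 nt in all genes, and ran from 1096 nt (Zfp580) to 13834 nt (Zfp704).

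Shared sequence was measured as the share of a gene's 50-base transcript windows that also occur at another locus. In 41 members (14.0%) it was over 5%, against 8.98% of all annotated genes, and in 119 members no window was shared. Zfp433 (chr10:81704825-81726686) had the highest share, 84.6%, mostly with the predicted gene Gm32687. Zfp960 (chr17:17064113-17089628) followed with 84.5%, mostly with Zfp97, and then Zfp59 with 52.4%, Zfp617 with 42.5% and Zfp932 with 37.1%. Of the 41 members over the limit, 36 had a KRAB-like stretch. Values of these genes are uncertain, because reads could be split between copies.

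Some facts of the libraries bear on what follows. The deposited values are normalized log2 values with nearly the same distribution in every library, so a value gives a gene's place among the others and not the amount of RNA per cell, and sequencing depth is unknown. Over the members, libraries of a group correlated at 0.881 to 0.977 for PDGFRa-GFP, 0.985 to 0.988 for PLP-GFP and 0.959 to 0.961 for NDRG1-eGFP, with PDGFRa-GFP replicate 3 standing apart. The 7 oligodendrocyte markers made up 8.73% to 10.2%, 9.57% to 9.84% and 10.7% to 10.9% of the summed linear values in PDGFRa-GFP, PLP-GFP and NDRG1-eGFP libraries. The 6 progenitor markers made up 0.00140% to 0.0129%, 0.00231% to 0.00321% and 0.00155% to 0.00281%, so the libraries labelled as progenitors held myelin transcripts near the level of the other groups and few of progenitors. Among 5 fibroblast-like markers all 5 were lower in PLP-GFP than in both other groups, at 0.000166% to 0.000584% against 0.00788% to 0.0134% in PDGFRa-GFP and 0.00346% to 0.0113% in NDRG1-eGFP. Of 6 microglia markers, 5 were higher in NDRG1-eGFP than in PLP-GFP (0.00403% to 0.00706% against 0.00181% to 0.00282%). No astrocyte or neuron marker was called in any comparison. Of 2 endothelial markers measured, Cldn5 was higher in PLP-GFP than in PDGFRa-GFP (mean 6.09 against 0.83, limma, adjusted p = 0.0160), against 8.46% of all genes. None of these markers was at 0, but Pdgfra, Col3a1 and Dcn shared the same value, 1.52, in PLP-GFP replicate 1. A value above 0 therefore does not show that a marker was detected. The part of these markers in the results below was not tested. In sorted bulk samples, fewer cells of a type and less RNA per cell cannot be told apart.

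Members lay below the typical gene in level. The median over the 9 libraries was 9.70 on the log2 scale for members and 10.57 for all genes, and per kilobase of transcript it was 7.75 and 8.73. Members with a mean under 8 numbered 49 (16.7%), against 18.2% of all genes, so the family was short of high values rather than rich in very low ones. KRAB-like members had a median level of 9.12 (7.23 per kilobase) and members without such a stretch 10.20 (8.19 per kilobase).

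Zfp706, a small protein with 1 finger, had the highest mean level of the family, in log2 value and per kilobase (12.53). Its libraries read 14.68, 14.73 and 14.82 in PDGFRa-GFP, 14.81, 14.90 and 14.84 in PLP-GFP, and 14.35, 14.59 and 14.33 in NDRG1-eGFP. The NDRG1-eGFP libraries all lay below those of both other groups, by 0.43 ± 0.11 (SE) against PLP-GFP (limma, adjusted p = 0.00939), although 6.98% of its windows are shared and the call was lost once transcript length was allowed for (adjusted p = 0.184). Next in log2 value were Zfp536, Zfp365, Zfp281 and Zfp207, with library values from 12.17 to 13.94. At the other end, the lowest means were those of Zfp791, Zfp960, Zfp808, Zfp473 and Zfp433, where library values ran from 2.51 to 7.63.

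Compared with PLP-GFP cells, NDRG1-eGFP cells had lower values for many Zfp genes and higher values for few. Of 293 members, 81 (27.6%) were lower and 23 (7.85%) higher, whereas over all genes 22.2% were lower and 26.1% higher (limma, adjusted p under 0.05). The share of lower calls was thus near that of all genes, and it was the share of higher calls that was small. The members' median log2 fold change was -0.315 and that of all genes 0.08, and recentring every library on its median ratio left the members' median negative, at -0.39. Called lower members ran from -3.19 to -0.40 with a median of -1.05. Called higher members ran from 0.36 to 2.0 with a median of 0.78.

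**Figure D1:**
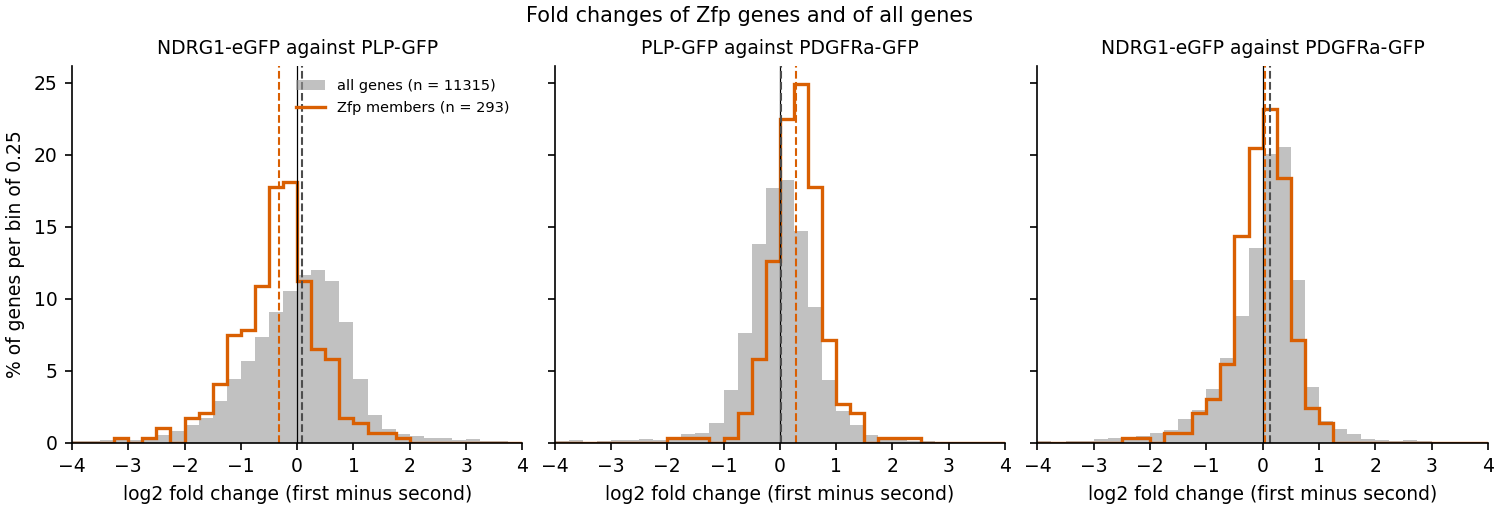
Distribution of log2 fold changes (x axis, first group minus second, bins of 0.25) as a percentage of genes (y axis) for the 293 Zfp members (orange outline) and all 11315 genes (grey) in the 3 comparisons, with dashed lines at the medians. The members' median lies left of that of all genes for NDRG1-eGFP against PLP-GFP (-0.315 against 0.08), right of it for PLP-GFP against PDGFRa-GFP (0.29 against 0.03), and close to it for NDRG1-eGFP against PDGFRa-GFP (0.04 against 0.14).

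Zfp316 had the lowest NDRG1-eGFP value relative to PLP-GFP among members within the shared-sequence limit. This gene (chr5:143249697-143270022, 14 fingers and a KRAB-like stretch) read 10.06, 10.34 and 10.49 in PLP-GFP libraries and 8.59, 7.93 and 7.26 in NDRG1-eGFP libraries. In PDGFRa-GFP libraries it read 9.80, 9.47 and 9.61. The 3 groups did not overlap, with NDRG1-eGFP lowest, and the log2 fold change was -2.37 ± 0.30 against PLP-GFP (adjusted p = 0.000223) and -1.70 ± 0.30 against PDGFRa-GFP (adjusted p = 0.00374).

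Zfp91, which encodes a ubiquitin ligase of the NF-kappaB pathway, had the smallest adjusted p among the members named here. It read 11.58, 11.65 and 11.64 in PLP-GFP, 11.27, 11.09 and 11.07 in PDGFRa-GFP, and 10.02, 9.81 and 9.72 in NDRG1-eGFP libraries. No library of a group reached into another group. Its log2 fold change was -1.78 ± 0.14 against PLP-GFP (adjusted p = 8.74e-06) and -1.30 ± 0.14 against PDGFRa-GFP (adjusted p = 0.000103).

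Zfp526 (13 fingers, no KRAB-like stretch) was near 8.5 in PLP-GFP libraries, at 8.43, 8.48 and 8.52. NDRG1-eGFP libraries read 5.93, 6.31 and 6.34, and PDGFRa-GFP libraries 6.13, 6.36 and 7.48. PLP-GFP libraries lay above all 6 others, while the other groups overlapped. NDRG1-eGFP was 2.28 ± 0.38 lower than PLP-GFP on the log2 scale (log2 fold change -2.28, adjusted p = 0.00100), and PLP-GFP was 1.82 ± 0.38 higher than PDGFRa-GFP (adjusted p = 0.0150). Next were Zfp369 (-1.95 ± 0.32), a p75 neurotrophin receptor partner described with its role below, and Zfp516 (-1.77 ± 0.33), a transcription factor known from brown fat.

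The 5 largest higher values in NDRG1-eGFP cells belonged to Zfp36, Zfp14, Zfp428, Zfp580 and Zfp467. Zfp580 has the shortest transcript of all members (chr7:5051538-5053723) and read 10.57, 10.66 and 10.44 in NDRG1-eGFP libraries. It read 9.49, 8.99 and 9.14 in PLP-GFP and 9.57, 9.48 and 9.55 in PDGFRa-GFP libraries. NDRG1-eGFP libraries lay above all others, by 1.35 ± 0.17 against PLP-GFP (adjusted p = 0.000231) and 1.03 ± 0.17 against PDGFRa-GFP (adjusted p = 0.00277). Zfp428 showed the same order, with 9.08, 8.93 and 8.73 in NDRG1-eGFP, 7.34, 7.23 and 7.20 in PLP-GFP and 7.67, 7.87 and 8.47 in PDGFRa-GFP libraries. Its log2 fold change was 1.66 ± 0.26 against PLP-GFP, and Zfp467 had 1.25 ± 0.27.

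Zfp36 encodes tristetraprolin, which speeds the decay of AU-rich messages and is itself an early response gene. It read 12.54, 11.01 and 12.89 in NDRG1-eGFP libraries, 10.40, 10.03 and 10.01 in PLP-GFP libraries, and 12.88, 12.86 and 10.22 in PDGFRa-GFP libraries. NDRG1-eGFP libraries all exceeded PLP-GFP libraries but spread widely, and PDGFRa-GFP replicate 3 lay among the PLP-GFP libraries. The difference from PLP-GFP was 2.0 ± 0.67 (adjusted p = 0.0302), and the call was lost without PLP-GFP replicate 1, 2 or 3, without NDRG1-eGFP replicate 1 or 3, and with the length trend removed, where the difference was 1.75 (adjusted p = 0.0728). The 12 immediate early genes, among them Fos, Jun and Egr1, moved with it: 10 of 12 were higher in NDRG1-eGFP than in PLP-GFP, against 26.1% of all genes. With the length trend removed, 6 of these 12 genes were called higher, against 19.2% of all genes. Their summed share ran from 0.0255% to 0.369% in PDGFRa-GFP, from 0.0224% to 0.0245% in PLP-GFP and from 0.0491% to 0.404% in NDRG1-eGFP libraries. Their library median was 12.64, 12.66 and 8.78 in PDGFRa-GFP libraries 1, 2 and 3, and 12.39, 10.14 and 13.12 in NDRG1-eGFP libraries 1, 2 and 3, so in both groups the library with the lowest Zfp36 value also had the lowest median. PLP-GFP libraries had medians of 8.33, 7.88 and 8.21. Whether the sort or dissociation had a part in this was not tested.

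**Figure D2:**
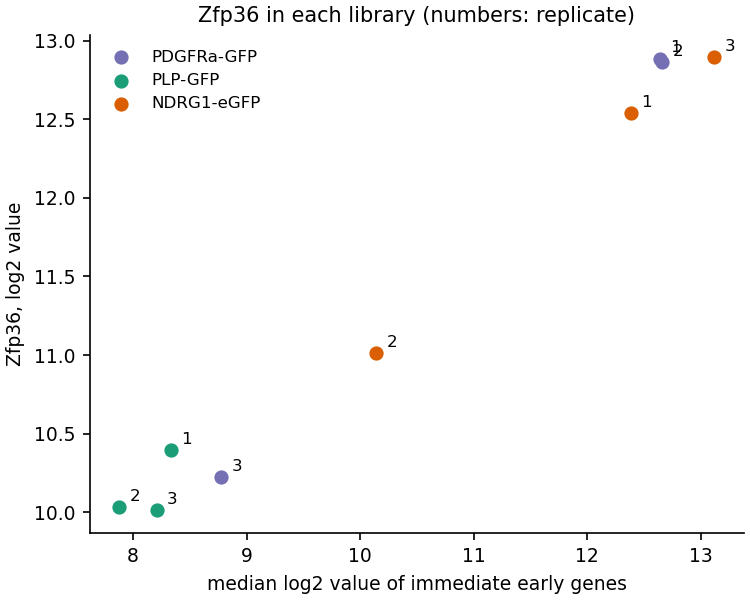
Zfp36 log2 value (y axis) against the median log2 value of 12 immediate early genes (x axis) in the 9 libraries, coloured by group and numbered by replicate. PDGFRa-GFP replicate 3 (8.78, 10.22) lies with the PLP-GFP libraries, and NDRG1-eGFP replicate 2 (10.14, 11.01) lies between them and the remaining 4.

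Promoters of Zfp36 and Zfp91 are shown as those of the member with the highest fold change and the lower member with the smallest adjusted p in the NDRG1-eGFP against PLP-GFP comparison. Each line gives the 250 bases before the RefSeq transcript start (GRCm38.p6), chr7:28379229-28379478 and chr19:12796124-12796373, both minus strand, with GC boxes (GGGCGG or its reverse complement) in capitals.
Zfp36: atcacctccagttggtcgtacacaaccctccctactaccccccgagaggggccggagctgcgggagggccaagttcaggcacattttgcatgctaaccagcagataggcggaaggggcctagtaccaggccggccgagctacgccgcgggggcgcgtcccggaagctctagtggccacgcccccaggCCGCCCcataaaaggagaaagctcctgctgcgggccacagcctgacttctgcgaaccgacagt
Zfp91: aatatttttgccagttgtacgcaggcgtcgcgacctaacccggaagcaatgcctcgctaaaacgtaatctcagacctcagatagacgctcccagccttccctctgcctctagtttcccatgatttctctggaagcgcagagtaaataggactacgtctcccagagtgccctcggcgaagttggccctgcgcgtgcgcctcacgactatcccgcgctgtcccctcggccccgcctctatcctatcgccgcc
Zfp36 had 1 GC box and Zfp91 had 0. A RefSeq promoter was matched for 242 members and 9006 genes in all. A GC box stood in 40.9% of the members' promoters and 61.4% of all, and a median promoter held 11 CpG in members and 16 in all, at 53.8% and 60.4% G and C. The other motifs searched, on both strands and with none contained in another, were AP-1 (TGANTCA, 3.31% of members and 3.63% of all), CRE (TGACGTCA, 3.31% and 2.94%) and YY1 (AANATGGC, 7.02% and 4.63%). Among members with a promoter, a GC box stood in 59.1% of the 22 called higher and 35.3% of the 68 called lower in the comparison of NDRG1-eGFP and PLP-GFP. A match is a run of letters and not a measured binding site.

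Long transcripts had lower values in NDRG1-eGFP relative to PLP-GFP over all genes, and this touched the members too. The correlation of the log2 fold change with log2 transcript length was -0.312 over the 293 members and -0.306 over 11274 genes, where genes of a library share its RNA quality and are not independent. Among the 98 members with transcripts over 4287 nt, 49 (50%) were lower and 5 (5.10%) higher, against 39.9% and 7.69% of all genes of such length. Among the 98 members up to 3066 nt, 13 (13.3%) were lower and 16 (16.3%) higher, against 9.78% and 45.8% of all such genes. The 97 members between had 19 lower (19.6%) and 2 higher (2.06%), against 17.0% and 19.7%. The medians were -0.10 for the shortest members against 0.52 for all genes of that length, -0.30 against 0.03 for those between, and -0.63 against -0.43 for the longest.

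After each library's trend on transcript length was removed, 65 members (22.2%) were lower and 20 (6.83%) higher in NDRG1-eGFP than in PLP-GFP, against 16.5% and 19.2% of all genes tested. The members' median was then -0.27 and that of all genes 0.06. Zfp316 kept -1.82, Zfp526 -2.34 and Zfp91 -1.35, each still called, as did Zfp14 (1.69), Zfp428 (1.15), Zfp580 (0.86) and Zfp467 (1.25). RNA quality per library is not given in the sources used here, and the origin of the length trend was not tested.

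**Figure D3:**
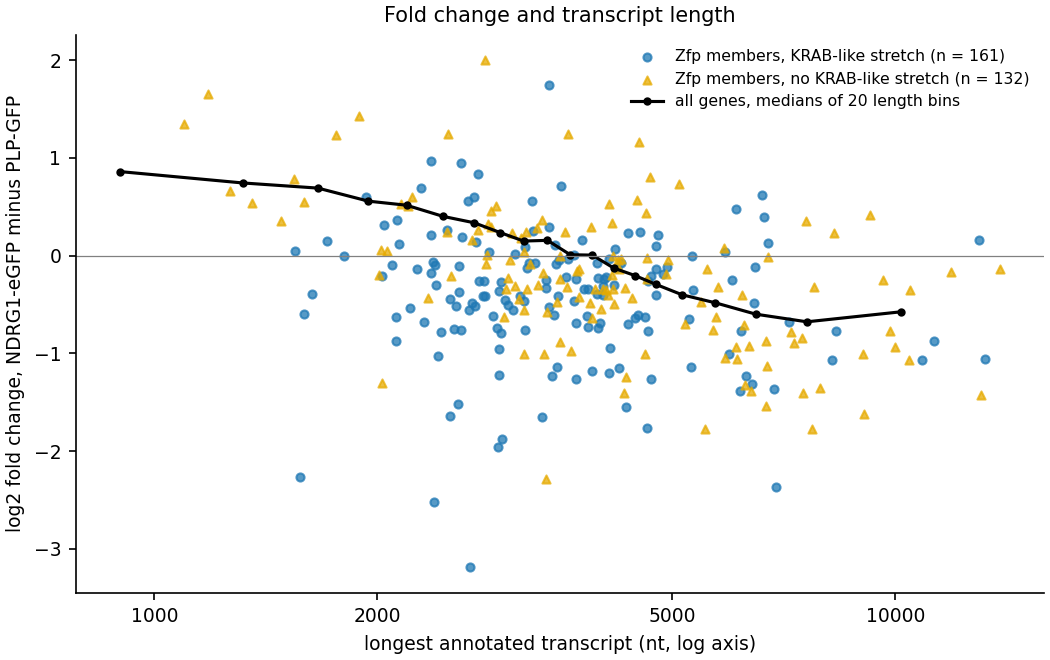
Log2 fold change, NDRG1-eGFP minus PLP-GFP (y axis), against the longest annotated transcript (x axis, log scale) for members with (blue circles, n = 161) and without (yellow triangles, n = 132) a KRAB-like stretch. The black line joins the medians of all genes in 20 length bins, and most members up to 3066 nt lie below it (median -0.10 against 0.52 for all genes of that length).

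Members with a KRAB-like stretch had 41 lower and 7 higher of 161 (25.5% and 4.35%, median -0.36). Members without it had 40 lower and 16 higher of 132 (30.3% and 12.1%, median -0.23). Over all genes 22.2% were lower and 26.1% higher, so both classes had a smaller share of higher calls. With the length trend removed the medians were -0.43 and -0.18, with 41 lower and 8 higher against 24 lower and 12 higher, where 16.5% of all genes were lower and 19.2% higher. Restricted to members within the shared-sequence limit, those medians were -0.25 for the 125 with and -0.18 for the 127 without a KRAB-like stretch, a smaller gap than over all members. The 41 members over the limit had 14 lower and 0 higher, with a median of -0.44. By finger number, the 55 members with 0 to 5 fingers had a median of -0.04, the 88 with 6 to 10 had -0.24, the 98 with 11 to 15 had -0.41 and the 52 with 16 or more had -0.37. Whether these classes differ from each other was not tested.

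Members at low levels had the more negative values. The 49 members with a mean under 8 had a median of -0.76, with 19 lower (38.8%) and 1 higher (2.04%). The 2063 genes of any name below that level had 0.03, with 15.4% lower and 14.2% higher. The 244 members at or above 8 had -0.24, with 62 lower (25.4%) and 22 higher (9.02%), and the 9252 such genes had 0.09, with 23.7% lower and 28.8% higher.

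PLP-GFP cells, compared with PDGFRa-GFP cells, had higher values for a set of members and lower values for 2. Higher were 34 of 293 (11.6%, against 8.46% of all genes) and lower 2 (0.683%, against 8.53%). The members' median was 0.29 and that of all genes 0.03. Called higher members ran from 0.42 to 2.22 with a median of 0.91. These counts rested on single libraries: 60 members (20.5%, against 12.8% of all genes) were higher and 11 (3.75%, against 11.8%) lower without PDGFRa-GFP replicate 3, the library that stood apart. The count of higher members was 14 without PDGFRa-GFP replicate 2 (3.32% of all genes), 21 without PLP-GFP replicate 1 (5.34%), 3 without PLP-GFP replicate 2 (0.813%) and 4 without PLP-GFP replicate 3 (1.27%). After removal of the length trend, 16 members (5.46%) had higher and 2 (0.683%) lower calls, against 4.44% and 5.13% of all genes.

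Zfp658 (21 fingers) and Zfp146 (10 fingers) kept their higher call under every alternative tried. Zfp658 read 9.37, 9.45 and 9.52 in PLP-GFP, 8.05, 8.28 and 8.13 in PDGFRa-GFP, and 8.35, 8.59 and 7.99 in NDRG1-eGFP libraries. PLP-GFP libraries lay above the 6 others, and its log2 fold change was 1.29 ± 0.21 against PDGFRa-GFP (adjusted p = 0.00642). Zfp146 read 9.85, 9.87 and 9.74 in PLP-GFP, 8.73, 8.50 and 8.52 in PDGFRa-GFP, and 8.40, 8.69 and 8.45 in NDRG1-eGFP libraries, again with PLP-GFP above all others (1.24 ± 0.18, adjusted p = 0.00380). Zfp39 (1.49 ± 0.26), Zfp521 (1.43 ± 0.37) and Zfp933 (1.39 ± 0.27) were also among the 5 highest, with Zfp526, and these 4 lost their call without PLP-GFP replicate 2.

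Zfp14 and Zfp277 were the 2 members with a lower call in PLP-GFP against PDGFRa-GFP cells. Zfp277, which encodes a partner of Polycomb proteins at the Cdkn2a locus, read 9.67, 9.43 and 9.41 in PLP-GFP libraries. It read 10.55, 10.77 and 11.12 in PDGFRa-GFP and 10.68, 10.73 and 10.61 in NDRG1-eGFP libraries. PLP-GFP libraries lay below all others, with -1.31 ± 0.17 against PDGFRa-GFP (adjusted p = 0.00224), and NDRG1-eGFP was 1.17 ± 0.17 above PLP-GFP (adjusted p = 0.000525).

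Zfp14 (chr7:30036359-30051380, 13 fingers and a KRAB-like stretch) read 9.61, 9.83 and 9.62 in PLP-GFP libraries. The values were 11.57, 12.09 and 10.40 in PDGFRa-GFP and 10.95, 11.36 and 11.98 in NDRG1-eGFP libraries. All PLP-GFP values were the lowest, and PDGFRa-GFP replicate 3 was again the nearest to them. The log2 fold change was -1.66 ± 0.38 against PDGFRa-GFP (adjusted p = 0.0202), lost without PDGFRa-GFP replicate 2 or PLP-GFP replicate 2 or 3, and NDRG1-eGFP was 1.74 ± 0.38 above PLP-GFP (adjusted p = 0.00418).

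Both steps use the same PLP-GFP libraries, so a high or low PLP-GFP value moves them in opposite directions. By group mean, 193 members (65.9%) were highest in PLP-GFP, 71 (24.2%) in NDRG1-eGFP and 29 (9.90%) in PDGFRa-GFP, against 37.0%, 46.1% and 16.9% of all genes. The members' library median was 9.74, 9.85 and 9.80 in PLP-GFP, 9.56, 9.59 and 9.62 in PDGFRa-GFP, and 9.53, 9.67 and 9.61 in NDRG1-eGFP. The 3 PLP-GFP medians were the highest and the other groups overlapped. The median SD within a group over members was 0.33 in PDGFRa-GFP, 0.14 in PLP-GFP and 0.25 in NDRG1-eGFP.

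**Figure D4:**
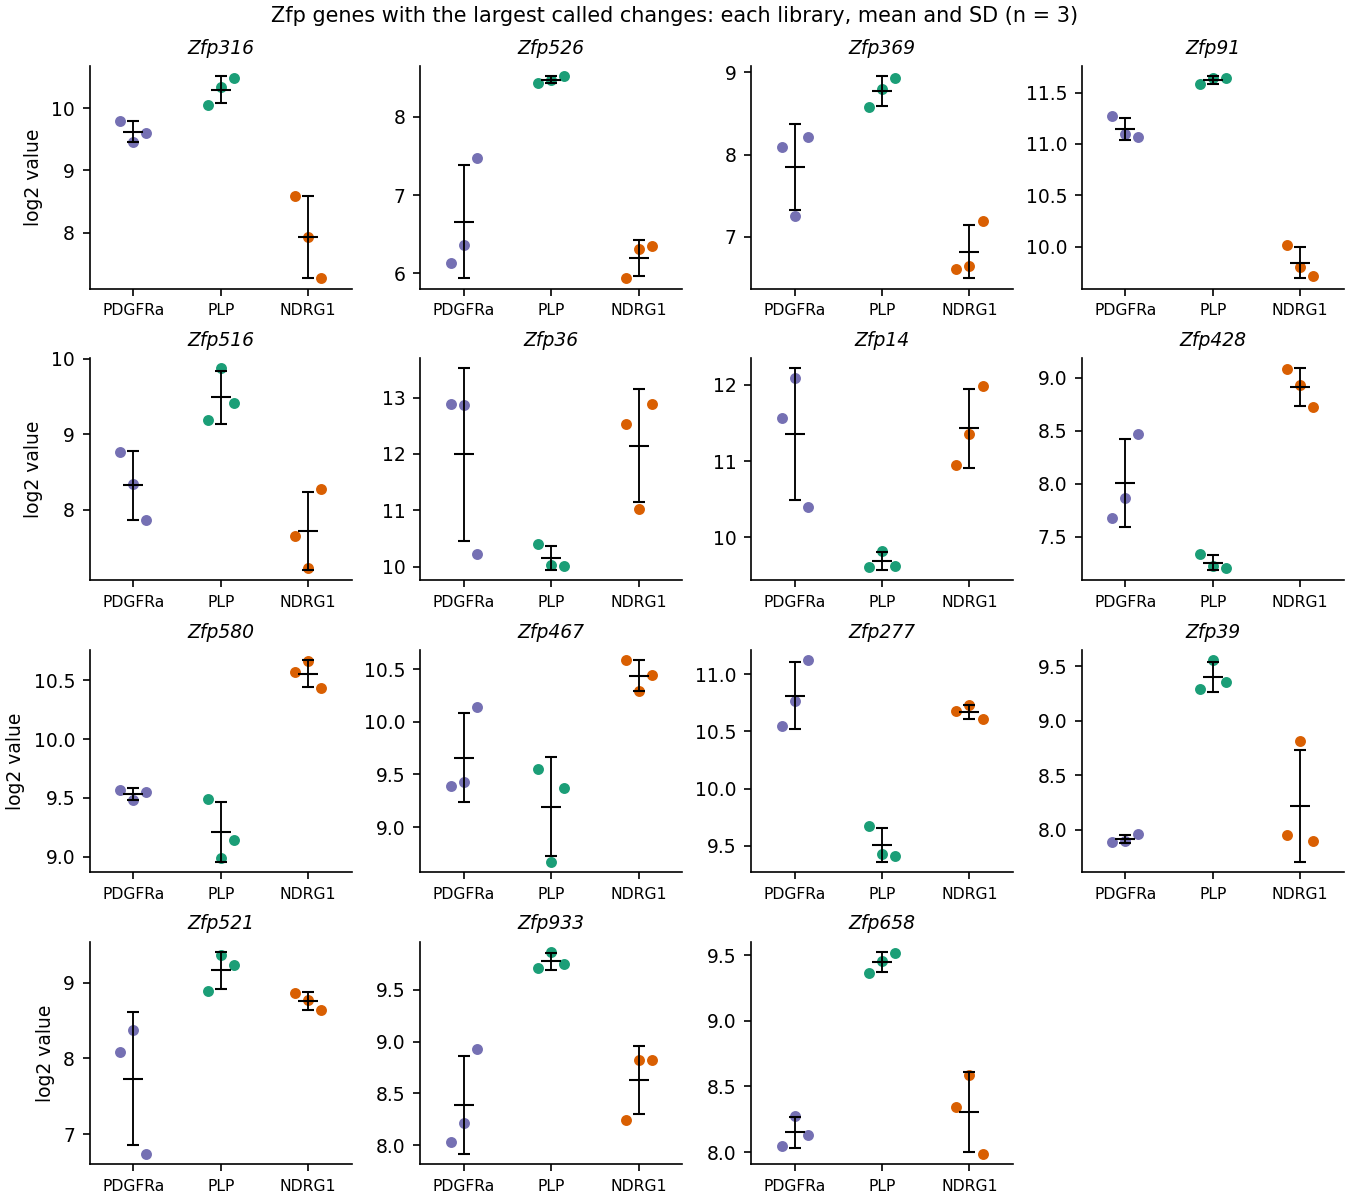
Log2 value (y axis, a separate scale per panel) of each library for the members with the largest called changes in NDRG1-eGFP against PLP-GFP and PLP-GFP against PDGFRa-GFP, by reporter (x axis), with the mean and SD (n = 3). PLP-GFP libraries are the highest in panels such as Zfp526, Zfp658 and Zfp39 and the lowest in Zfp14 and Zfp277.

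NDRG1-eGFP and PDGFRa-GFP cells differed at few members. Higher in NDRG1-eGFP were 11 (3.75%, against 10.7% of all genes) and lower 16 (5.46%, against 10.4%). The members' median was 0.04 and that of all genes 0.14, and the sign depended on scaling, since recentring on the median ratio gave -0.06 with 2 members higher (5.22% of all genes) and 26 lower (1362 of all 11315 genes). Without PDGFRa-GFP replicate 3 there were 32 higher (24.8% of all genes) and 30 lower (16.1%). Removing the length trend gave 12 higher and 14 lower, against 8.78% and 9.05% of all genes. Zfp316, Zfp91, Zfp318 (-1.17 ± 0.16) and Zfp580 (1.03 ± 0.17) kept their calls under every alternative. Zfp318, which shapes transcription through the immunoglobulin locus in B cells, read 9.15, 9.18 and 9.06 in NDRG1-eGFP libraries and 10.05 to 10.66 in the other 6.

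Members with known roles in neural cells and oligodendrocytes, 10 of 11 listed, had a median of -0.38 for NDRG1-eGFP against PLP-GFP, with 4 lower and 0 higher, where 22.2% of all genes were lower and 26.1% higher. With the length trend removed the median was -0.07, with 1 lower, against 16.5% of all genes. Zfp191 (Zfp24), required for myelination, read 13.05, 12.98 and 12.88 in PLP-GFP, 12.51, 12.47 and 13.03 in PDGFRa-GFP and 12.22, 12.56 and 12.27 in NDRG1-eGFP libraries. NDRG1-eGFP libraries lay below PLP-GFP libraries, by 0.62 ± 0.17 (adjusted p = 0.0106). Its transcript of 5732 nt is long, and with the length trend removed the fold change was -0.17 and not called (adjusted p = 0.536). The genes of any name whose 9 values correlated best with those of Zfp191 were Pramef8 (r = 0.962), Trove2 (r = 0.960) and Crebrf (r = 0.958), a description over 9 libraries that share groups and length trends.

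Zfp365, a DISC1-binding protein, and Zfp536, a repressor of neuronal differentiation, were among the most abundant members and not called in any comparison. Zfp365 read 13.15, 13.08 and 12.17 in PDGFRa-GFP, 13.54, 13.35 and 13.24 in PLP-GFP and 13.15, 13.29 and 13.60 in NDRG1-eGFP libraries, so PDGFRa-GFP replicate 3 was lowest and the other 8 lay between 13.08 and 13.60. Zfp536 read from 13.20 to 13.94 over all 9 libraries, with the groups overlapping. Its log2 fold change was -0.24 ± 0.15 against PLP-GFP (adjusted p = 0.220).

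Zfp369 and Zfp110 encode related partners of the p75 neurotrophin receptor. Zfp369 read 8.58, 8.80 and 8.94 in PLP-GFP, 8.09, 7.26 and 8.21 in PDGFRa-GFP and 6.62, 6.65 and 7.19 in NDRG1-eGFP libraries. NDRG1-eGFP libraries were the lowest, at -1.95 ± 0.32 against PLP-GFP (adjusted p = 0.000816). Zfp110 read between 11.37 and 11.91 in all 9 libraries and had -0.22 ± 0.14 (adjusted p = 0.212). The difference between these genes was not tested. Zfp335, a chromatin factor needed by neural progenitors (-1.01 ± 0.36, adjusted p = 0.0386), and Zfp292, a large factor linked to neurodevelopmental disorders (-0.94 ± 0.25, adjusted p = 0.0101), were lower too. With the length trend removed, Zfp335 had -0.75 and missed the threshold (adjusted p = 0.0970), while the difference of Zfp292 shrank to -0.29 (adjusted p = 0.181). The call of Zfp335 was also lost without any 1 of the PLP-GFP libraries and without NDRG1-eGFP replicate 1 or 2. Zfp521, which promotes early neural differentiation, read 8.08, 8.38 and 6.74 in PDGFRa-GFP, 8.89, 9.37 and 9.23 in PLP-GFP and 8.87, 8.77 and 8.64 in NDRG1-eGFP libraries. PDGFRa-GFP libraries were the lowest, and the call against PLP-GFP (1.43 ± 0.37) was lost with the length trend removed, where the difference was 1.14 (adjusted p = 0.0552), and without PLP-GFP replicate 2 or 3. Zfp462, a heterochromatin factor, and Zfp423, a regulator of cerebellar development, were not called in any comparison, and Zfp423 was low (5.11 to 7.74).

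The list of chromatin and general transcription factors, 12 of 13 measured, had 6 lower and 0 higher in NDRG1-eGFP than in PLP-GFP, with a median of -0.39, beside 22.2% lower and 26.1% higher over all genes. Removing the length trend left 3 lower, 0 higher and a median of -0.27, beside 16.5% lower and 19.2% higher over all genes. Zfp532, Zfp592 and Zfp687 are partners in a complex with the chromatin reader Zmynd8, and all 3 were lower, at -1.13 ± 0.20, -0.90 ± 0.19 and -0.70 ± 0.13 (adjusted p = 0.00134, 0.00342 and 0.00177). Zfp532 read 11.81, 11.54 and 11.66 in NDRG1-eGFP libraries and 12.70, 12.82 and 12.87 in PLP-GFP libraries. It alone of these 3 was called with the length trend removed (-0.59, adjusted p = 0.0134). Zfp644, a partner of the G9a methyltransferase (-0.71 ± 0.14), and Zfp148, a factor that binds GC-rich promoters (-0.77 ± 0.13), were lower, and neither was called with the length trend removed. Zfp131 (-0.45 ± 0.15) was lower in both fits, a call lost without any 1 of the PLP-GFP libraries and without NDRG1-eGFP replicate 1 or 2.

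Zfp143, a promoter factor that works with CTCF, read 10.18, 10.16 and 10.12 in PLP-GFP libraries. It read 9.32, 9.64 and 9.62 in PDGFRa-GFP and 9.88, 9.95 and 9.94 in NDRG1-eGFP libraries. The groups did not overlap, and the difference of PLP-GFP from PDGFRa-GFP was 0.63 ± 0.15 (adjusted p = 0.0233), a call lost without any 1 of the PLP-GFP libraries. Zfp410, an activator of Chd4, had 0.26 ± 0.12 in NDRG1-eGFP against PLP-GFP (adjusted p = 0.0900), while Chd4 had -0.93 (adjusted p = 0.00114), which shrank to -0.39 with the length trend removed (adjusted p = 0.0219). Zfp281, Zfp384, Zfp609 and Zfp219 were not called in any comparison.

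Of the 11 members that act on RNA, translation or protein turnover, NDRG1-eGFP cells had 4 higher (36.4%) and 3 lower (27.3%) relative to PLP-GFP, with a median of 0.28. Over all genes the shares were 26.1% and 22.2%, so the list does not stand apart from them. Removing the length trend left 3 higher and 2 lower, against 19.2% and 16.5% of all genes. Zfp106, an RNA-binding protein needed by motor neurons, read 12.68, 12.86 and 12.76 in PLP-GFP, 12.08, 11.83 and 10.72 in PDGFRa-GFP and 11.01, 11.09 and 11.34 in NDRG1-eGFP libraries. PLP-GFP libraries lay above the 6 others, with NDRG1-eGFP at -1.62 ± 0.29 (adjusted p = 0.00138) and still called with length allowed for (-0.99). Zfp638, an RNA-binding protein that silences retroviral DNA, was lower at -1.01 ± 0.26 (adjusted p = 0.00927), a call lost with the length trend removed. The third lower member was Zfp91.

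Higher with Zfp36 were Zfp326, Zfp622 and Zfp830. Zfp326, of a complex that links RNA polymerase II to splicing, had 0.81 ± 0.24 (adjusted p = 0.0193), and Zfp622, a ribosome maturation factor, had 0.57 ± 0.18 (adjusted p = 0.0218). Both stayed called with the length trend removed, at 1.08 and 0.81. Zfp326 lost its call without PLP-GFP replicate 2 or 3 or NDRG1-eGFP replicate 2, and Zfp622 without PLP-GFP replicate 1 or 2 or NDRG1-eGFP replicate 1 or 2. Zfp830, a splicing-associated protein, had 0.55 ± 0.17 (adjusted p = 0.0237) and 0.02 with the length trend removed, and lost its call without any 1 of the PLP-GFP libraries or NDRG1-eGFP replicate 2. Zfp598, the ubiquitin ligase that senses collided ribosomes, read 9.19, 9.39 and 9.53 in NDRG1-eGFP and 10.48, 10.28 and 10.36 in PLP-GFP libraries, without overlap, and missed the threshold (-1.0 ± 0.40, adjusted p = 0.0594). Its PDGFRa-GFP libraries read 10.73, 10.95 and 9.06. Zfp207, Zfp346 and Zfp451 were not called in any comparison, and the SUMO ligase gene Zfp451 was called higher in NDRG1-eGFP than in PLP-GFP once the length trend was removed (0.47, adjusted p = 0.0263).

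The 6 KRAB repressors of imprinted genes and retroelements had a median of -0.76 for NDRG1-eGFP against PLP-GFP, with 2 lower and 0 higher, and a level of 8.46 on the log2 scale. Over all genes 22.2% were lower and 26.1% higher. With the length trend removed the median was -0.66, with 3 lower and 0 higher, beside 16.5% and 19.2% over all genes. The added call was Zfp932 (limma, adjusted p = 0.0459), and 2 of the 6 are over the shared-sequence limit. Zfp568, which represses a placental promoter of Igf2, read 9.87, 9.91 and 9.95 in PLP-GFP, 9.02, 8.44 and 9.13 in PDGFRa-GFP and 8.17, 8.53 and 8.95 in NDRG1-eGFP libraries. PLP-GFP libraries were the highest, by 1.36 ± 0.25 over NDRG1-eGFP (log2 fold change -1.36, adjusted p = 0.00162) and by 1.05 ± 0.25 over PDGFRa-GFP (adjusted p = 0.0226). The first of these calls was lost with the length trend and shared genes both removed, and the second with the length trend removed and without PDGFRa-GFP replicate 2 or PLP-GFP replicate 2 or 3. Zfp708, a retroelement repressor with 6.57% shared windows, was lower in NDRG1-eGFP (-0.75 ± 0.25, adjusted p = 0.0291), a call lost without any 1 of the PLP-GFP libraries and without NDRG1-eGFP replicate 1 or 2. The imprinting guardians Zfp57 and Zfp445 stood far apart in level, at 5.59 and 9.95 per kilobase, and neither was called. Zfp57 read 7.53, 6.98 and 8.05 in NDRG1-eGFP and 6.16, 6.85 and 6.70 in PLP-GFP libraries (0.95 ± 0.38, adjusted p = 0.0595). Zfp809, which recognises the primer site of leukaemia viruses, had -0.01 ± 0.22. Zfp932, with 37.1% shared windows, spread from 3.85 to 7.05 within NDRG1-eGFP.

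**Figure D5:**
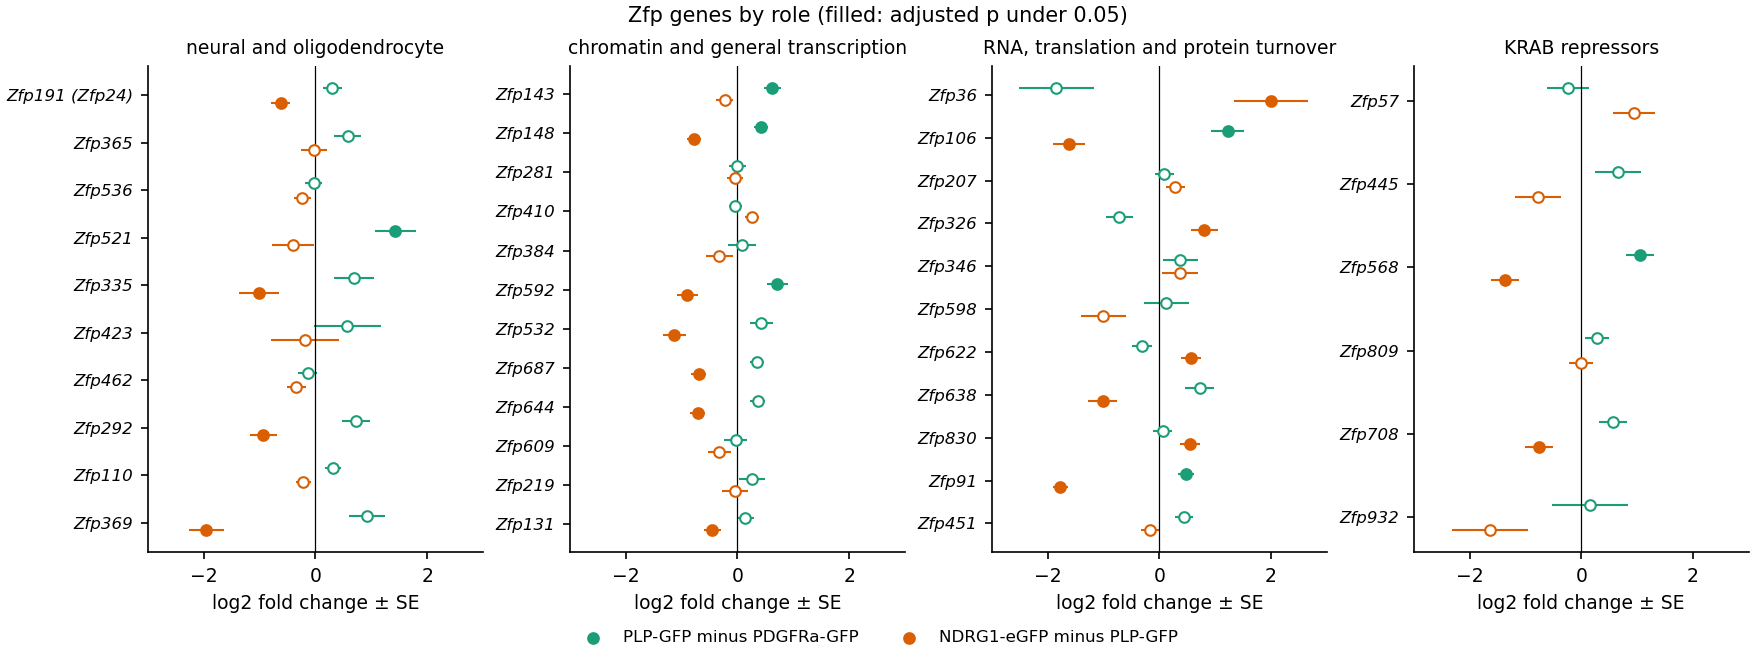
Log2 fold change with its SE (x axis) for the members of the 4 role lists (y axis), with PLP-GFP minus PDGFRa-GFP in green and NDRG1-eGFP minus PLP-GFP in orange, filled where the adjusted p is under 0.05. The RNA, translation and turnover list has 4 filled orange points to the right of 0 and 3 to the left, and in the other 3 lists every filled orange point lies left of 0.

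The proteins through which KRAB repressors act were also examined, as 19 measured genes of the KAP1 pathway. In NDRG1-eGFP against PLP-GFP cells 11 were lower (57.9%) and 2 higher (10.5%), with a median of -0.63, where 22.2% of all genes were lower and 26.1% higher. Removing the length trend left 7 lower (36.8%) and 3 higher (15.8%), with -0.29, against 16.5% and 19.2% of all genes. Trim28, the KAP1 gene, had -0.63 (adjusted p = 0.00346), and -0.74 with the length trend removed (adjusted p = 0.00143). Setdb1, the histone methyltransferase it recruits, had -0.72 (adjusted p = 0.0175), which shrank to -0.29 and was not called with the length trend removed (adjusted p = 0.207). Of the 19 genes, 3 were over the shared-sequence limit, and all 3 were among the lower calls: Setdb1 (7.98%), Hdac1 (35.3%) and Cbx3 (7.38%). Hdac1 (-1.25) and Cbx3 (-1.37) stayed called lower with the length trend removed. Zinc finger families with other names, picked by symbol alone, are set against the same shares of all genes. The 36 genes with Zbtb symbols, a count that takes in Zbtb8os by its symbol, had a median of -0.48 (15 lower, 0 higher). With the length trend removed it was -0.24 (7 lower, 0 higher). The 10 Zkscan genes had -0.25 (3 lower, 1 higher) and then -0.07 (3 lower, 1 higher), and the 7 Zscan genes -0.17 (1 lower, 1 higher) and then -0.05 (0 lower, 1 higher). The 21 Zfp genes with a letter after the number, 11 of them over the shared-sequence limit, had -0.74 (12 lower, 0 higher) and then -0.54 (9 lower, 0 higher).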

How the data were processed

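Each library's table, as the authors deposited it, pairs gene symbols with normalized log2 values, per the file headers. BWA, DESeq2 1.2.5 and mm10 are listed in the submitters' processing notes with no role given. The values are not counts, so sequencing depth is unknown and no interval from counting could be given. limma-trend (limma 3.58.1, R 4.3.3) was fitted to the log2 values of all 9 libraries with a term per group and no added constant. Tests were two-sided, with Benjamini-Hochberg adjustment across the 11315 genes and calls made at an adjusted p under 0.05. An exact permutation test of 3 against 3 libraries cannot give p under 0.1 and was not used. The fit was tested on simulated data.

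Transcripts, positions and coding sequences came from GENCODE M21 on GRCm38, which mm10 denotes, for 11274 of the 11315 symbols. Length trends were natural splines with 4 degrees of freedom on log2 length, fitted per library. Levels per kilobase are the log2 value less log2 of the length in kilobases. Members named were, per comparison, the 5 highest and 5 lowest called fold changes among members with groups that did not overlap, a mean of at least 8 in the higher group and at most 5% shared windows. Also named were members called in opposite directions in both steps, the 5 highest and lowest levels, the role lists, the 5 most shared and the 3 genes most like Zfp24. Members and lists were chosen with earlier results of these data known. Zfp217 and Zfp503 of the role lists were not analysed here. Nothing in the labels says that a number marks a shared animal or day. Same-numbered libraries of different groups did not deviate together (r from -0.234 to 0.094), so numbers were not treated as pairs. With 3 libraries a group this cannot exclude a shared day or preparation.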

Additional observations from a re-analysis of the deposited data

How the results depend on the processing

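Alternatives were recentring on the median ratio, removing the length trend, leaving out shared genes, both together, a mean of at least 8, a constant of 5 added on the linear scale, a replicate block, fitting only the groups compared, requiring also a change of 1 or more on the log2 scale, and leaving out each library. Of 42 named members called in NDRG1-eGFP against PLP-GFP, 23 kept the call under every alternative except the fold requirement, which was applied to counts only, as did 3 of 16 in PLP-GFP against PDGFRa-GFP and 4 of 16 in NDRG1-eGFP against PDGFRa-GFP. Depth is unknown, and 3 libraries a group limit the precision.

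For NDRG1-eGFP against PLP-GFP, the 23 members higher (2953 of all 11315 genes) became 8 with the fold requirement (936 of all genes). Without a library they became 11 to 34 (2114 to 3783 of all genes), with 15, 11 and 13 without PLP-GFP replicate 1, 2 and 3. The 81 lower (2507 of all genes) became 44 with the fold requirement (1350). With length trend and shared genes both removed, 24 of the 252 members kept were higher (1777 of 10262 genes) and 41 were lower (1213 of 10262 genes). Without a library the lower members numbered 57 to 104 (1847 to 3125 of all genes). For PLP-GFP against PDGFRa-GFP, the 34 higher (957 of all genes) became 16 with the length trend removed (501 of 11274 genes). With shared genes also left out, 16 of 252 members were higher (491 of 10262 genes). The replicate block gave 11 (338 of all genes), fitting only the groups compared 18 (552) and the fold requirement 12 (284). Without a library there were 3 to 60 (92 to 1449 of all genes). The 2 lower (965 of all genes) became 1 to 11 without a library (186 to 1340 of all genes). There were 7 without PDGFRa-GFP replicate 1 (1103 of all genes) and 3 with recentring (1101). For NDRG1-eGFP against PDGFRa-GFP, the 11 higher (1207 of all genes) became 2 with recentring (591) and 1 with the replicate block (457). Fitting only the groups compared gave 1 (318 of all genes), the fold requirement 1 (159) and leaving out a library 2 to 32 (447 to 2804). The 16 lower (1176 of all genes) became 26 with recentring (1362), 8 with the replicate block (864) and 7 with only the groups compared (724). The fold requirement gave 10 (657 of all genes) and leaving out a library 8 to 30 (836 to 1817). With length trend and shared genes removed, 4 of 252 members were lower (423 of 10262 genes). Among fits without a library, the largest counts in all 3 comparisons came without PDGFRa-GFP replicate 3. For NDRG1-eGFP against PLP-GFP these were 34 higher and 104 lower. That library is in neither of these groups and enters their comparison only through the spread, which the fit pools over all groups.

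Zfp451 turned from -0.16 to 0.47 in NDRG1-eGFP against PLP-GFP with the length trend removed and to 0.48 with shared genes also left out, and Zfp830 turned from 0.55 to -0.13 with both. Zfp598 turned from 0.13 to -0.47 in PLP-GFP against PDGFRa-GFP without PDGFRa-GFP replicate 3. The causes were not tested. The replicate block changed the call of Zfp335 and Zfp708 in NDRG1-eGFP against PLP-GFP, and the labels do not say whether the numbers mark pairs.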
